A study of Mus musculus with 28 samples.

Results

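Mitochondrial respiratory chain subunits are the proteins of complexes I to IV, which pass electrons to oxygen while all of them but complex II pump protons across the inner mitochondrial membrane, and of complex V, the ATP synthase that uses this gradient. Most of them are encoded in the nucleus, and a few are encoded in mitochondrial DNA (mtDNA). In liver this chain carries the electrons released by fatty acid oxidation and the citric acid cycle. The nuclear-encoded subunits were taken by gene symbol: names starting with Nduf and a letter of a, b, c, s or v followed by a number, Sdha to Sdhd, Uqcr genes, Cyc1, and the Cox4 to Cox8 and Atp5 genes. This gave 83 of the 47719 genes listed in each deposited table. By name, 36 belong to complex I, 4 to complex II, 9 to complex III, 17 to complex IV and 17 to complex V. Ndufa4 is counted under complex I by its name and is known as a complex IV subunit, and Atp5s and Atp5sl are not structural subunits of the ATP synthase.

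RNA sequencing was done on the liver of 28 male C57BL/6 mice in 7 groups of 4, about 6 weeks old when the diets began. In 6 of the groups nonalcoholic steatohepatitis (NASH), in which a fatty liver becomes inflamed and scarred, was induced over 26 weeks by chow in which fat gave 40% of the energy and fructose and cholesterol made up 22% and 2% of the weight. These mice were then dosed by mouth once a day for 4 weeks with obeticholic acid (OCA, 25 mg/kg), a bile acid derivative, with tropifexor (LJN452) at a low, mid or high dose, or with the vehicle of either drug. Tropifexor is an agonist without a bile acid structure, and both compounds activate FXR, the nuclear receptor for bile acids. Low, mid and high were read as 0.1, 0.3 and 0.9 mg/kg, an order that is assumed, since no label ties a dose to a group. The groups are therefore OCA, low, mid and high tropifexor, OCA vehicle, tropifexor vehicle and lean control, the last on chow with 10% of its energy as fat and neither fructose nor cholesterol. Vehicle groups were read from the sample titles, since the treatment field of those samples names the drug. The authors' deposited table of each comparison holds 1 FPKM (fragments scaled to transcript length and library size) per group of 4 animals, a log2 fold change and a q-value. The spread between animals therefore enters only through the authors' Cuffdiff test. Sequencing depth per library is unknown. A gene was called when its q was under 0.05, and "rose" or "fell" is used of called genes. A value given without FPKM after such a verb, or after "had", is a log2 fold change. The SE beside a fold change was derived from the deposited fold change and test statistic and rescaled to the deposited p.

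As a check of the tissue label, all 10 hepatocyte markers were at 1 FPKM or more in every group, and albumin (Alb) lay between 30921 and 55403 FPKM in the authors' deposited table of each diet and drug comparison. Between 15208 and 16144 genes were tested per table. Tables were scaled separately, so that the same group differed between tables by up to 0.19 (log2) as a constant, and each level below stands with the group from its own table. In bulk liver, here and in all results, fewer cells of a type and less RNA per cell cannot be told apart.

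Subunits differed widely in level within the lean liver. In the authors' deposited table of tropifexor vehicle against lean control, 71 of the 83 stood at 10 FPKM or more in lean control and 48 at 100 or more. The highest was Uqcrq, a small accessory subunit of complex III, at 907 FPKM in lean control by the authors' deposited table. It was followed by Atp5b, the catalytic beta chain of the ATP synthase, at 834 FPKM, Ndufa4 at 568 and Cox6b1, a subunit on the outer face of complex IV, at 509 in the authors' deposited table. Median levels per complex in lean control were 91.2 FPKM for complex I, 201 for complex II, 167 for complex III, 130 for complex IV and 213 for complex V. The 12 subunits under 10 FPKM included the muscle, lung and testis isoforms of complex IV. They also included Atp5g1 at 2.30, Atp5g2 at 0.721, Atp5l at 0.0531 and Cox7c at 4.68 FPKM in the authors' deposited table, for each of which the annotation holds near-identical gene copies that could share their reads. Such copies exist for 19 of the 83, and the exons of 28 overlap another gene, so that 44 have neither.

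At the mid dose of tropifexor, 50 of 80 tested subunits rose against vehicle and 1 fell. That is 62.5% called higher, where 11.8% of all tested genes were called higher and 15.7% lower. The median log2 fold change of the subunits was 0.46, with quartiles of 0.35 and 0.54, beside -0.01 for all tested genes. At the high dose 44 of 80 rose and 0 fell, which is 55.0% higher, beside 9.93% of all tested genes called higher and 15.5% lower, and the median was 0.41 beside -0.05. Subunits are abundant and well measured: of tested genes at 50 FPKM or more in vehicle, 26.8% were called higher at the mid dose and 19.9% at the high dose. Of the subunits above the same level, 69.8% and 61.9% were called higher at the mid and the high dose. Medians by complex at the mid dose were 0.44 for complex I, 0.47 for complex II, 0.41 for complex III, 0.38 for complex IV and 0.51 for complex V. Complexes are taken by gene name here, so complex IV leaves out Ndufa4 and includes tissue-restricted isoforms under 1 FPKM. Its widely expressed subunits are given apart below. Both dose groups share 1 vehicle group.

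**Figure D1:**
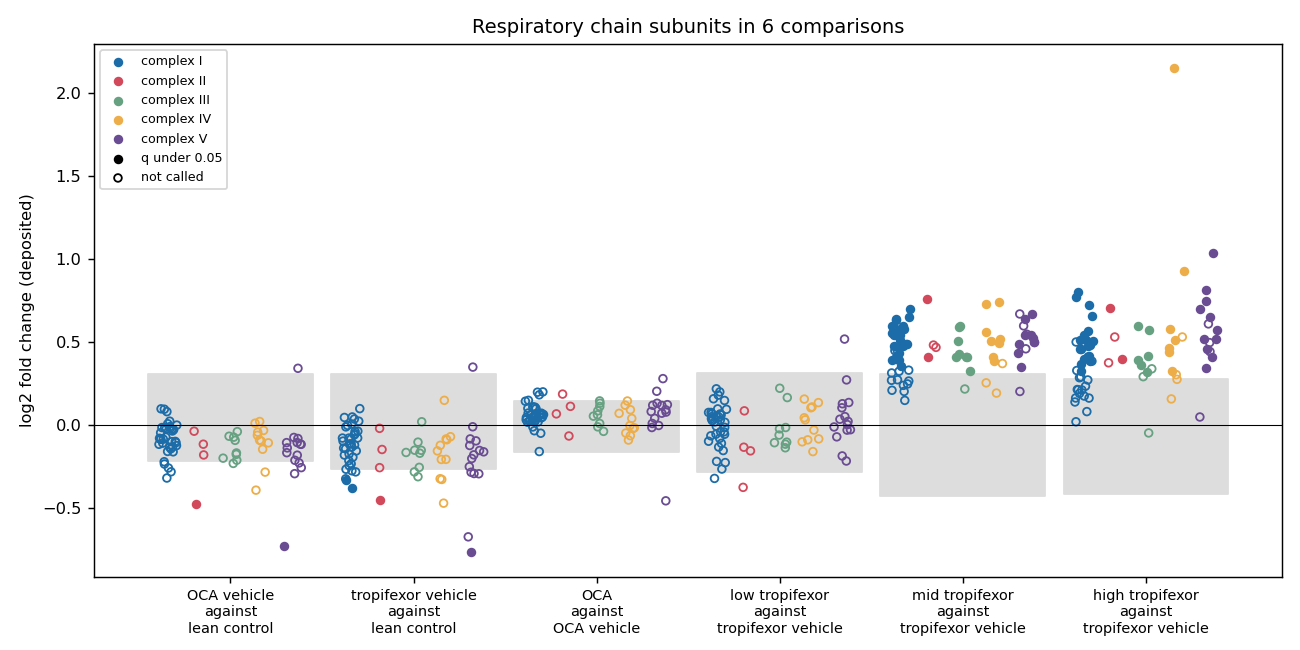
Deposited log2 fold change (vertical axis) of each respiratory chain subunit at 1 FPKM or more in the second-named group of 6 comparisons, coloured by complex and filled where q was under 0.05; grey boxes span the quartiles of all tested genes. Most points of the mid and high tropifexor groups lie above the box, with medians of 0.46 and 0.41 over all tested subunits, while those of OCA and low tropifexor lie around 0.

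OCA and low tropifexor gave no call. With OCA, 0 of 79 tested subunits were called at a q under 0.05 in the authors' Cuffdiff test and 0 had an unadjusted p under 0.05, beside 1.81% of all tested genes called higher and 2.23% lower, and 2.1% of those at 50 FPKM or more in vehicle called higher. The median was 0.06, and 62 fold changes were above 0 and 17 below. With low tropifexor, 0 of 80 were called in the same test and 1 had an unadjusted p under 0.05, beside 6.03% of all tested genes called higher and 5.2% lower, and 3.59% of those at 50 FPKM or more called higher. The median was 0.02, with 42 above 0 and 38 below. The median SE of a subunit's fold change was 0.141 with OCA, 0.185 at the low dose, 0.138 at the mid dose and 0.135 at the high dose. The low-dose comparison was thus the least precise of these 4.

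In the core of complex I, the subunits that hold its flavin and iron-sulfur clusters and the quinone site, most members described here rose at both upper doses. Ndufv1, which binds the flavin and accepts electrons from NADH, stood at 93.5 FPKM with OCA against 89.1 in its vehicle, at 102 with low tropifexor against 98.1, at 133 with mid against 85.7, and at 156 with high against 89.3, per the authors' deposited table of each comparison. Its log2 fold changes were 0.07 (SE 0.17), 0.05 (SE 0.228), 0.63 (SE 0.165, q = 0.000361) and 0.80 (SE 0.166, q = 0.000396) in that order, per the authors' deposited table of each comparison. Only the mid and high groups thus stood apart from vehicle by the test. Ndufs7, which carries the last iron-sulfur cluster before quinone, rose by 0.60 at the mid and 0.72 at the high dose in the authors' deposited table. Ndufs3, next to the quinone site, rose by 0.70 (q = 0.0121) and 0.77 (q = 0.00343) according to the authors' deposited table. Ndufv2, which holds another cluster near the flavin, rose by 0.55 and 0.50 according to the authors' deposited table. Ndufs8, which carries iron-sulfur clusters, rose at the mid dose by 0.39 (q = 0.014) and had 0.29 (q = 0.081) at the high dose in the authors' deposited table. Ndufs1, the largest subunit, had 0.44 and 0.50 without a call in the authors' deposited table.

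Among the 28 accessory subunits of complex I, which surround the core and are needed for its assembly and stability, 17 rose at the mid and 12 at the high dose, with medians of 0.42 and 0.32. Ndufb6 stood at 98.2 FPKM at the mid dose against 63.0 in vehicle and at 104 at the high dose against 65.6, a rise of 0.64 and 0.66 according to the authors' deposited table. Ndufb8 rose by 0.65 and 0.54 according to the authors' deposited table. Ndufb3 was called at neither dose, with 28 FPKM at the mid dose against 25.3 and 26.7 at the high dose against 26.3 in the authors' deposited table. Its interval of 95% ran from -0.12 to 0.41 at the mid and from -0.24 to 0.28 at the high dose. Ndufa6, a subunit of the LYR family, rose at the mid dose by 0.43 (q = 0.00559) and had 0.16 (q = 0.405) at the high dose in the authors' deposited table.

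Complex II, succinate dehydrogenase, links the citric acid cycle to the chain and has 4 subunits, of which 2 rose at each upper dose. Sdhb, its iron-sulfur subunit, had the largest rise among the subunits at the mid dose. It stood at 170 FPKM with OCA against 150 in its vehicle, at 162 with low tropifexor against 153, at 226 with mid against 133 and at 227 with high against 139, by the authors' deposited table of each comparison. The log2 fold changes were 0.19 (SE 0.134) with OCA and 0.08 (SE 0.175) at the low dose without a call, and 0.76 (SE 0.129) at the mid and 0.71 (SE 0.126) at the high dose, by the authors' deposited table in each case. Sdhd, one of the membrane anchors, rose by 0.41 and 0.39 at the mid and high dose in the authors' deposited table. Sdhc, the other anchor, and Sdha, the flavoprotein, were not called at these doses; in the authors' deposited table Sdhc had 0.48 (q = 0.105) and 0.53 (q = 0.0714), and Sdha 0.47 (q = 0.268) and 0.37 (q = 0.393).

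**Figure D2:**
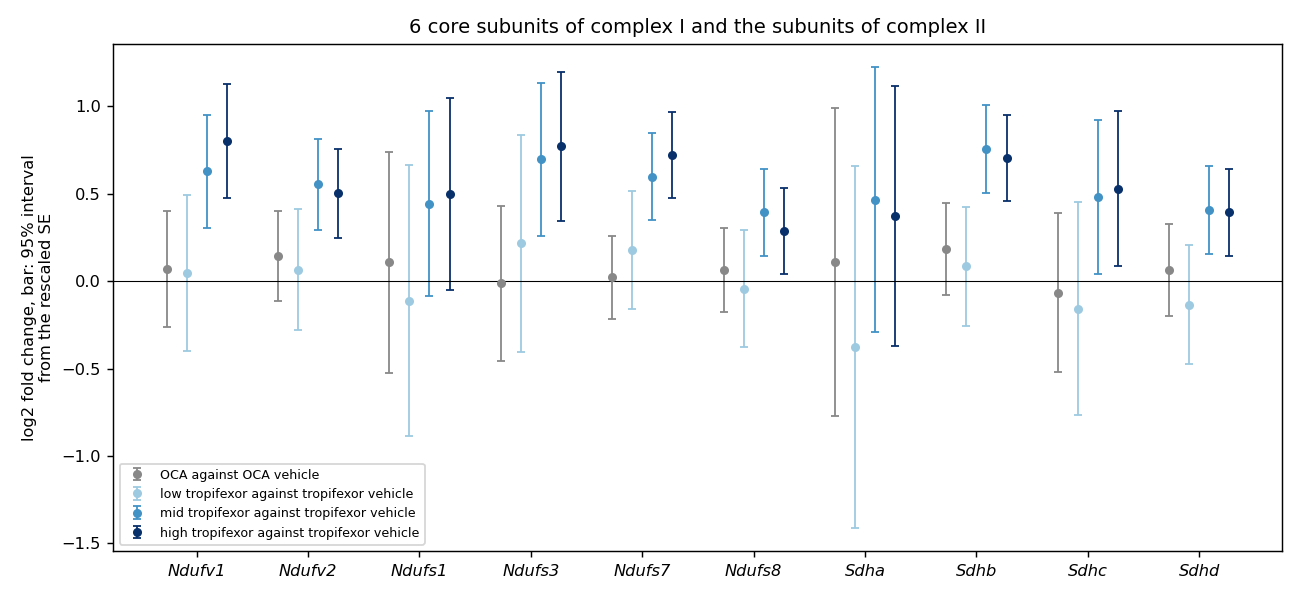
Deposited log2 fold change against vehicle (vertical axis) of 6 nuclear-encoded core subunits of complex I and of the 4 subunits of complex II, with OCA and with low, mid and high tropifexor; bars are 95% intervals from the derived SE. The points of Ndufv1 and Sdhb at the mid and high dose lie between 0.63 and 0.80, with intervals above 0, and those with OCA and the low dose have intervals that include 0.

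In complex III, which passes electrons from quinol to cytochrome c, 7 of 9 subunits rose at the mid and 6 at the high dose. Uqcrc1, a core protein, rose by 0.60 and 0.57, and Uqcrh, the acidic hinge protein near cytochrome c1, by 0.59 and 0.60 at the mid and high dose in the authors' deposited table. Cyc1, cytochrome c1 itself, rose by 0.43 and 0.42 according to the authors' deposited table. The most abundant subunit of all, Uqcrq, stood at 932 FPKM at the mid dose against 802 in vehicle and at 807 at the high dose against 835, with no call at either dose in the authors' deposited table. At the high dose the other members of complex III lay between 0.29 for Uqcrb and 0.60 for Uqcrh, and Uqcrq was lowest at -0.05 in the authors' deposited table.

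Complex IV, cytochrome c oxidase, was described in its widely expressed subunits and in its tissue-restricted isoforms. Of the 11 widely expressed ones, Ndufa4 included, 8 rose at the mid and 7 at the high dose, with medians of 0.49 and 0.46. Cox5b, a zinc-binding subunit on the matrix side, stood at 213 FPKM with mid tropifexor against 128 in vehicle and at 253 with high tropifexor against 133 by the authors' deposited table. In the authors' deposited table its rises were 0.74 (SE 0.209, q = 0.00316) and 0.93 (SE 0.189, q = 0.000396), and with OCA and low tropifexor it had 0.12 and 0.04 without a call. Ndufa4 rose by 0.49 and 0.51 according to the authors' deposited table. Cox6a1, the liver form of its subunit, had 0.19 (SE 0.127) and 0.16 (SE 0.124) at the mid and high dose in the authors' deposited table. Cox4i1, the main regulatory subunit, had 0.25 and 0.27 with an SE of 0.476 and 0.461 in the authors' deposited table, so that a change of the size of its neighbours was not detectable for it.

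Among the tissue-restricted isoforms, Cox7a1 stood out at the high dose. Cox7a1 is the form of subunit VIIa that heart, skeletal muscle and brown fat use, while Cox7a2 is the form found in liver. Cox7a1 stood at 2.90 FPKM with OCA against 2.83 in its vehicle, at 3.21 with low tropifexor against 2.88, at 4.17 with mid against 2.52 and at 11.6 with high against 2.62, per the authors' deposited table of each comparison. The mid group was 1.66-fold over vehicle (log2 0.73, SE 0.255, q = 0.0247) and the high group 4.44-fold (log2 2.15, SE 0.245, q = 0.000396), while OCA and low tropifexor were not called, in the authors' deposited table of each. With 10.7 FPKM in the high group against 3.38 in lean control, Cox7a1 had a log2 fold change of 1.66 (SE 0.215, q = 0.000346) in the authors' deposited table. Cox7a2 stood at 158 FPKM at the mid dose against 112 in vehicle (log2 0.49, q = 0.000361) and at 144 at the high dose against 117 (log2 0.30, q = 0.0585) in the authors' deposited table. Cox7a1 remained the minor form, with 7.47% of the summed Cox7a1 and Cox7a2 FPKM at the high dose against 2.2% in vehicle. The gene lies on chromosome 7 from 30184144 to 30186078 on the plus strand (GRCm38, GENCODE M21), and neither a near-identical copy nor an overlapping exon was found for it.

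**Figure D3:**
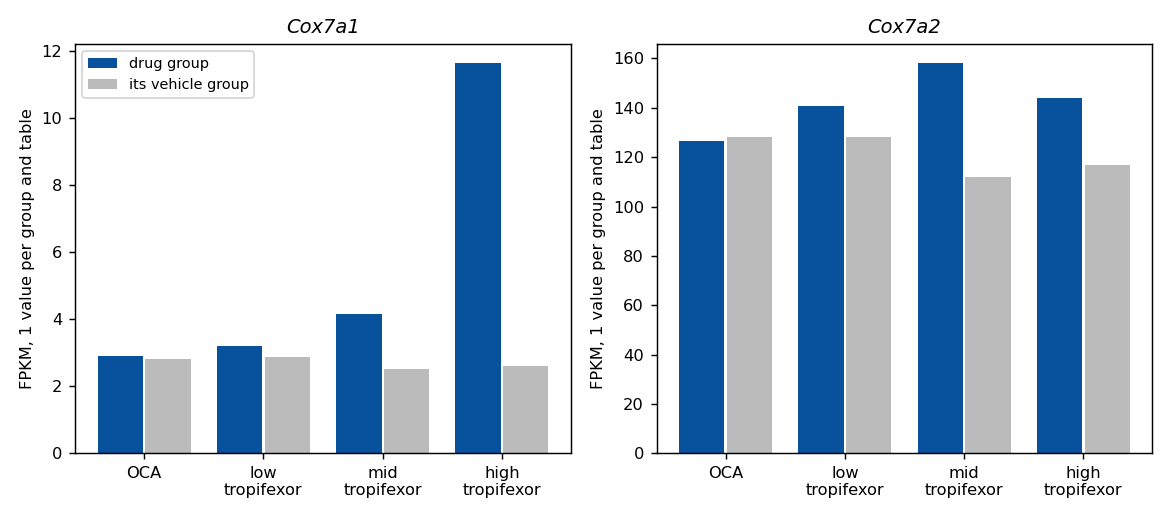
FPKM (vertical axis, from 0) of Cox7a1 and Cox7a2 in each drug group (blue) and its vehicle group (grey), with 1 deposited value per group and table. Cox7a1 stands at 11.6 FPKM with high tropifexor and at 4.17 or less in the other drug groups, and Cox7a2 lies between 112 and 158 throughout.

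Because Cox7a1 is used by muscle and brown fat, the marker lists of those tissues were read beside it. Of 8 skeletal muscle markers 7 were under 1 FPKM in the high group as in its vehicle, Myh1 was listed at 0 in both, and the list summed to 4.16 FPKM at the high dose against 4.31 in vehicle. Mylpf, a light chain of fast muscle myosin and the only marker above 1 FPKM, stood at 3.86 FPKM at the high dose against 3.82 in the authors' deposited table. Of the 6 adipocyte markers, Ucp1, which defines brown fat, was listed at 0 in both groups, and the list summed to 6.51 FPKM at the high dose against 58.6 in vehicle. That sum rests on few genes, since 5 of the 6 were under 1 FPKM at the high dose and 4 in vehicle. The sum was lower than vehicle in the other drug groups too. It was 17.3 FPKM with OCA against 66.9, 15.4 with low tropifexor against 64.5 and 7.11 with mid against 56.3. The part of the adipocyte markers in the Cox7a1 values was not tested. The other restricted isoforms, Cox4i2, Cox6a2, Cox6b2 and Cox8b, lay under 1 FPKM in every group of these 4 comparisons. Of them Cox6b2, the testis form, was called at the mid dose, at 0.240 FPKM against 0.585 in vehicle (log2 -1.29, q = 0.0294) in the authors' deposited table. At that level the SE derived for it was 0.933 and its interval included 0, so the call and the derived error differ there. Cox7b2 and Cox8c were not tested.

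In complex V 10 of 16 tested genes rose at the mid and 11 at the high dose. Of the 5 subunits of the F1 head 4 rose at the mid and 3 at the high dose, of the 4 stalk subunits 2 and 3, and of the 2 tested membrane accessory subunits 2 and 2. Atp5c1, the rotating gamma chain, stood at 295 FPKM with mid tropifexor against 190 in vehicle and at 310 with high against 198 (log2 0.64 and 0.65) by the authors' deposited table. Atp5k, a small membrane subunit involved in the dimer of the enzyme, rose by 0.67 and 0.70 according to the authors' deposited table. Atp5o, which joins the stalk to the head, had 0.67 (q = 0.0714) at the mid and rose by 0.81 (q = 0.0209) at the high dose in the authors' deposited table. Atp5b, the most abundant, had 0.46 (q = 0.113) and 0.50 (q = 0.102), with an SE of 0.223 and 0.23, from the authors' deposited table. Of the 3 genes for the same c-ring protein, Atp5g3 made up 99.6% of their summed FPKM in tropifexor vehicle and rose by 0.35 and 0.34 according to the authors' deposited table. That share may be overstated, since near-identical copies could take up reads of Atp5g1 and Atp5g2, and none was found for Atp5g3. Atp5g1 rose by 1.04 (SE 0.324, q = 0.00988) at the high dose, at 3.06 FPKM against 1.49 in vehicle, in the authors' deposited table, and it is among the genes whose copies could share its reads.

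**Figure D4:**
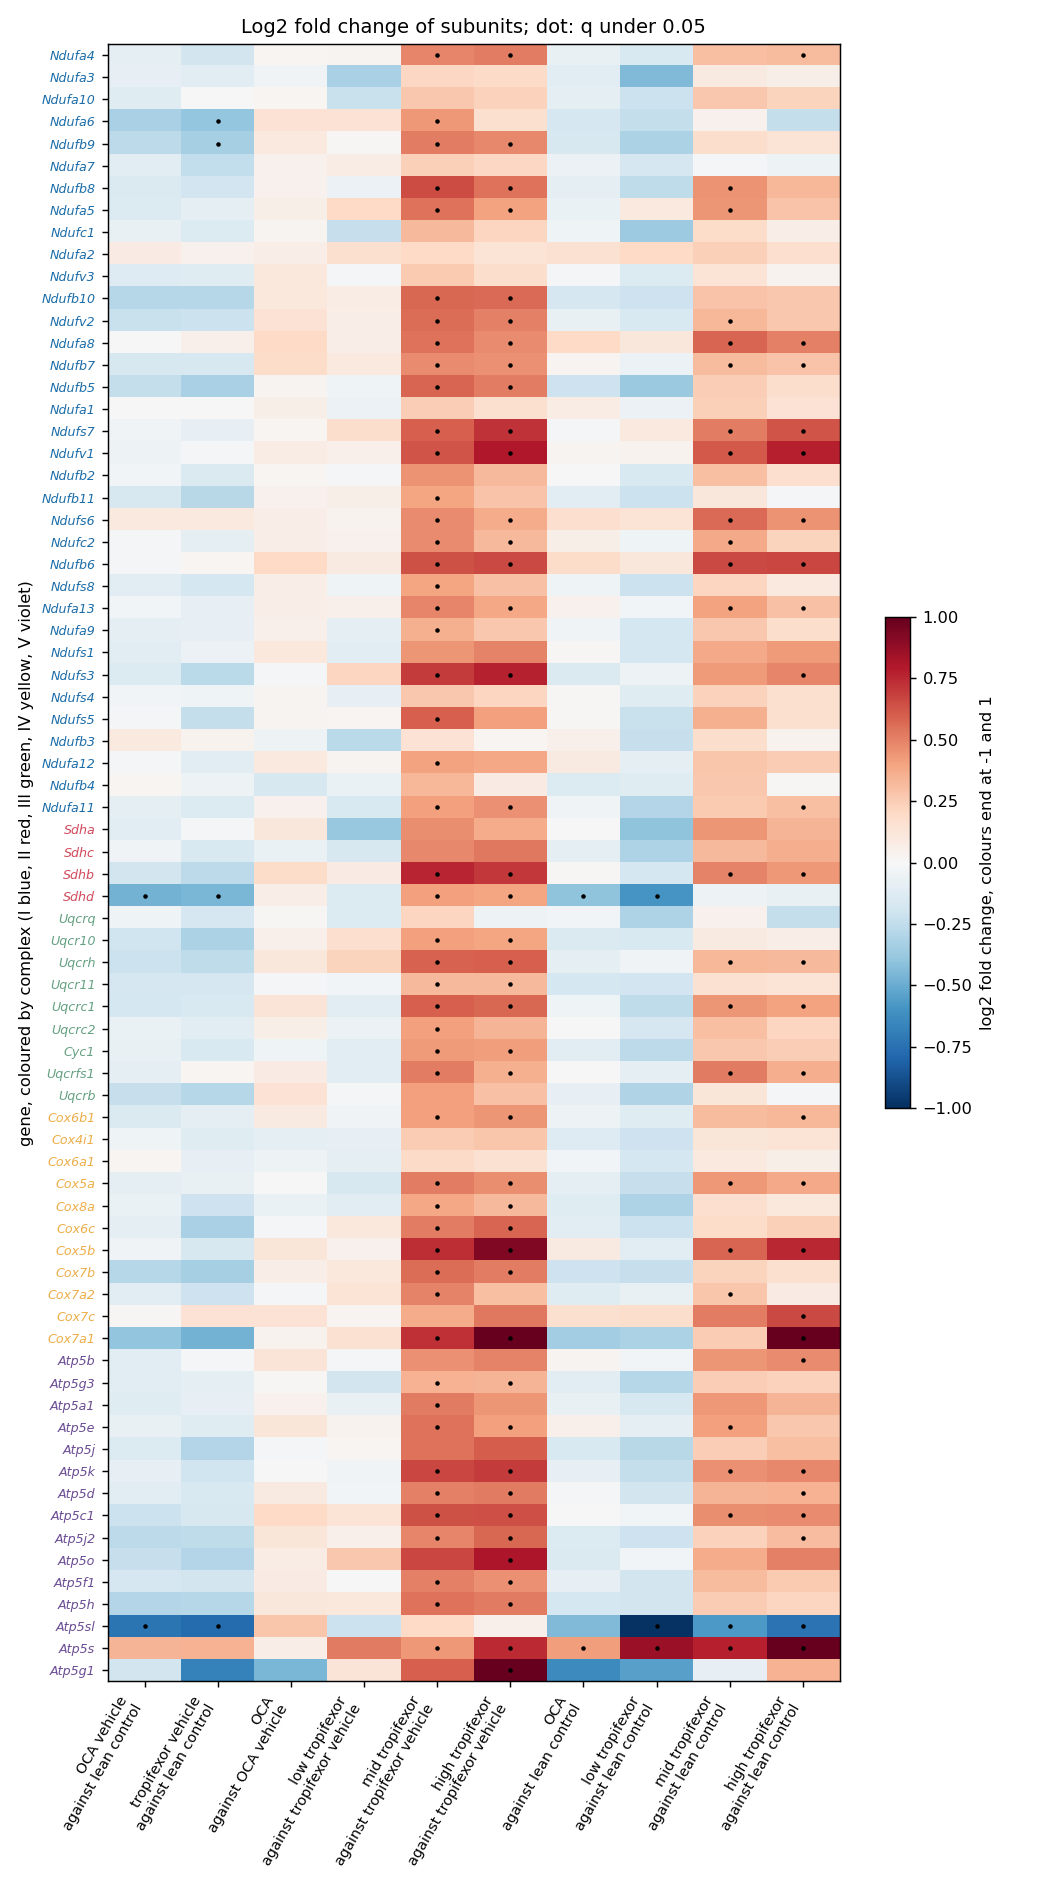
Deposited log2 fold change (colour, ending at -1 and 1) of the subunits at 1 FPKM or more in tropifexor vehicle, 1 gene left out, grouped by complex and ordered by level there, in all 10 comparisons (columns); a dot marks a q under 0.05. The mid and high tropifexor columns against vehicle are red for nearly all genes, most of them with a dot, the OCA and low-dose columns are pale, and Atp5sl is blue in both vehicle groups against lean control.

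The promoter windows of the subunits, called or not, were searched for motifs of factors known to control respiratory genes and for the FXR inverted repeat. This shows what sequence the genes of the list carry, and called subunits were not compared with uncalled ones. RefSeq windows of 250 bases before and 50 after the start (GRCm38.p6) were found for 65 of the 83 genes, in 70 windows, and were set beside 32851 windows of all genes, with both strands read. The palindromic NRF1 motif, whose letters are the capitals of the Atp5k window printed here, was in 7.14% of subunit windows and 0.97% of all windows, and the GABP motif CCGGAAG of the ETS family in 22.86% and 8.86%. The ERR motif TCAAGGTCA, bound by estrogen-related receptors, was in 2.86% and 0.42%, and the YY1 motif AAGATGGCG in 10.0% and 1.4%. The FXR inverted repeat, AGGTCA and TGACCT with any 1 base between them, was in 0 of the 70 subunit windows and in 3 of all windows. At 0.01% of all windows this exact form is too rare for 70 windows to tell whether subunits carry FXR sites. Looser forms were not searched. Matches of different motifs overlapped in 0 cases, and 26 of the 65 genes held at least 1 of the motifs. The windows of 5 genes, written here as the 250 bases before the start in the direction of the gene with motif matches in capitals, show the contrast between genes that rose most, rose little or fell on the diet; they were chosen with their values known. Cox7a1 (chr7:30183921-30184170, plus strand) rose most at the high dose and held none of the motifs. Atp5k (chr5:108434400-108434649, minus strand) has an NRF1 match at -50, Sdhd (chr9:50603850-50604099, minus strand) a GABP match at -46, and Atp5g3 (chr2:73911327-73911576, minus strand) an ERR match at -52. After the start, beyond the printed bases, Atp5k also has a GABP match at 13 and Sdhd an ERR match at 37. Cox6a1 (chr5:115348959-115349208, minus strand) holds an NRF1 match at -162 and a GABP match at -16 and was called at neither upper dose.
Cox7a1: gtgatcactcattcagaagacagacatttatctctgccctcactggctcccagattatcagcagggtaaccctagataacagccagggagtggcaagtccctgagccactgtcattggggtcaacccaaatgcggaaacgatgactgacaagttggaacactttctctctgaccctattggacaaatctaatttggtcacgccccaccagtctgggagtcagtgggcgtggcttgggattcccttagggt
Atp5k: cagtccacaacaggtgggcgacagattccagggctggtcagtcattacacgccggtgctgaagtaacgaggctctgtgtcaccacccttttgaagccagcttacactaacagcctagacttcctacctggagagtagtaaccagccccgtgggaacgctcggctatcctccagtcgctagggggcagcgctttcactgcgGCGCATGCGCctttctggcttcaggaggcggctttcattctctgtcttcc
Sdhd: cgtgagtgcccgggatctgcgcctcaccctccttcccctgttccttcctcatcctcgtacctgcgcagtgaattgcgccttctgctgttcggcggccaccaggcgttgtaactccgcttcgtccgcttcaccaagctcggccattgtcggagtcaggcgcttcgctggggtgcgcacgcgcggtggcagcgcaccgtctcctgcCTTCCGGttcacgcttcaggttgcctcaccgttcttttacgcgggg
Atp5g3: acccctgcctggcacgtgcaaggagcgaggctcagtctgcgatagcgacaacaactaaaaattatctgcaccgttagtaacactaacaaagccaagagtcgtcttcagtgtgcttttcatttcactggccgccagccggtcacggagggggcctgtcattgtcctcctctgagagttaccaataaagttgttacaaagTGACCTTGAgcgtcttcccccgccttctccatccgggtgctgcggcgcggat
Cox6a1: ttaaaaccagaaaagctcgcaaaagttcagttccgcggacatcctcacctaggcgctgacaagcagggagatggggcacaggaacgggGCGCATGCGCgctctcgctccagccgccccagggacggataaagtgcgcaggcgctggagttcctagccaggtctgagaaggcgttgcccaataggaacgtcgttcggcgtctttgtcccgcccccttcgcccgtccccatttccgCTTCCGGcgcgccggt
Of the 4 genes with a match here, Atp5k, Sdhd and Atp5g3 rose at both upper doses and Cox6a1 was not called, and a match describes letters, not binding.

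The NASH diet itself called few subunits. In OCA vehicle against lean control 1 of 79 was called higher and 2 lower, beside 11.4% of all tested genes called higher and 6.56% lower, and in tropifexor vehicle against lean control 1 of 80 was higher and 4 lower, beside 12.1% and 8.53%. Of genes at 50 FPKM or more in lean control, 4.23% and 5.2% were called higher in OCA vehicle and tropifexor vehicle. The medians were -0.10 and -0.15, with 67 fold changes below 0 in each of these comparisons, which share the lean group. All tested genes had medians of 0.02 and 0.01. Those at 50 FPKM or more in lean control had -0.15 and -0.16, and 227 of 1395 and 306 of 1403 of them were called lower. Subunits at that level had -0.11 and -0.15, which is not below the medians of abundant genes in general. The gene called higher in both was Cox8b, which was listed at 0 in lean control and at 0.665 and 0.735 FPKM in the OCA and tropifexor vehicle groups in the authors' deposited table, so no fold is given. Sdhd stood at 121 FPKM in OCA vehicle and 123 in tropifexor vehicle, against 168 and 169 in lean control, and fell by 0.48 (SE 0.131, q = 0.00457) and 0.46 (SE 0.127, q = 0.00325) in the authors' deposited table. Atp5sl, an assembly factor of complex I that the annotation names Dmac2, fell by 0.73 and 0.77, at 20.9 and 20.4 FPKM against 34.6 and 34.8 in lean control in the authors' deposited table. Ndufa6 fell by 0.38 (q = 0.0151) and Ndufb9, another accessory subunit, by 0.33 (q = 0.047) in tropifexor vehicle, and they had -0.32 (q = 0.0547) and -0.26 (q = 0.159) in OCA vehicle in the authors' deposited table. Sdhd, Ndufa6 and Ndufb9 were the subunits called lower on the diet in tropifexor vehicle and higher with mid tropifexor over the same vehicle, a pair of comparisons that shares the vehicle group, with 0.41, 0.43 and 0.51 at the mid dose in the authors' deposited table. The diet call of Ndufb9 was lost when the deposited p was adjusted over every gene listed (Benjamini-Hochberg adjusted p of 0.145 on the Cuffdiff p). Atp5sl was called with none of the drugs, with 0.28 for OCA and -0.22, 0.20 and 0.05 at the low, mid and high dose, per the authors' deposited table of each.

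Set against lean control in place of vehicle, with the same drug groups, 22 of 76 tested subunits rose in mid tropifexor and 1 fell, and 27 of 78 rose in high tropifexor and 1 fell. That is 28.9% and 34.6% called higher, beside 11.7% and 12.2% of all tested genes, and beside 18.3% and 16.2% of those at 50 FPKM or more in lean control. Called lower were 11.5% and 15.2% of all tested genes. The subunit medians were 0.28 and 0.27. In OCA against lean control 2 of 79 were called higher and 1 lower, beside 10.3% and 6.5% of all tested genes, and in low tropifexor against lean control 1 of 79 was higher and 2 lower, beside 13.8% and 10.1%. Of genes at 50 FPKM or more in lean control, 4.48% and 5.27% were called higher with OCA and low tropifexor. Sdhd, lower on the diet, was still lower than lean with OCA (-0.40, q = 0.00682) and low tropifexor (-0.59, q = 0.00183), while mid and high tropifexor had -0.05 and -0.08 without a call in the authors' deposited table. Ndufv1 exceeded the lean level by 0.61 and 0.78 and Cox5b by 0.58 and 0.76 in mid and high tropifexor in the authors' deposited table. Atp5sl stayed below lean in low (-0.99), mid (-0.57) and high (-0.74) tropifexor in the authors' deposited table. Atp5s, coupling factor B, was above lean in OCA (0.42), low (0.86), mid (0.77) and high (1.08) tropifexor in the authors' deposited table.

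Effects were also compared with one another, in 5 pairs, by a normal test of the difference of 2 fold changes with Benjamini-Hochberg adjustment over all genes tested in both tables. OCA and tropifexor were given at different doses, so the values stand side by side as those of the groups dosed. The SE implied by the deposited test statistic is 2.03 to 2.05 times the SE that the deposited p gives. It is thus stricter than the error behind the authors' calls against vehicle. With this implied SE, 0 of 79 subunits differed between high tropifexor and OCA, 3 had an unadjusted p under 0.05, and 1.69% of all genes differed. For high against low tropifexor 0 of 80 subunits differed and 1 had an unadjusted p under 0.05, and 0.278% of all genes differed. The other pairs, which were mid against low and high against mid tropifexor and the diet effect in tropifexor vehicle against that in OCA vehicle, also gave 0 calls, with 0, 1 and 0 unadjusted p under 0.05 and 0.423%, 0.319% and 0.0985% of all genes called. The median difference of the subunits was 0.35 between high tropifexor and OCA, 0.44 between high and low, 0.46 between mid and low and -0.03 between high and mid tropifexor. All genes had medians of -0.05, -0.04, 0.02 and -0.03 in the same order. That the upper doses passed the test against vehicle while OCA and the low dose did not is therefore not shown as a difference between drugs or doses for any single subunit by this error. Because the implied SE is the larger one, 0 calls by it do not show that the effects were alike. With the SE rescaled to the deposited p, which is the SE printed beside the fold changes, 8 subunits differed between high tropifexor and OCA. By the same SE 2 differed between high and low, 4 between mid and low and 1 between high and mid tropifexor. All of these were higher in the first-named, beside 11.5%, 5.63%, 10.3% and 2.32% of all genes called in either direction. The diet effects in the 2 vehicle groups differed for 0 subunits by either error, with 0 unadjusted p under 0.05 and 0.381% of all genes called by the rescaled one. The vehicle that the 3 tropifexor groups share was not modelled, so that its error is counted in both effects.

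Other genes of the pathway were read beside the subunits. For the lists in this and the next paragraph, 11.8% of all tested genes were called higher at the mid and 9.93% at the high dose. Called lower were 15.7% and 15.5%. Of the 13 mtDNA-encoded subunits 8 were tested, and 3 rose at the mid and 5 at the high dose, with medians of 0.49 and 0.63. With low tropifexor all 8 fold changes were below 0, with a median of -0.40 and 0 called. The 5 not tested, mt-Atp6, mt-Atp8, mt-Co2, mt-Co3 and mt-Nd4l, were listed at 0 FPKM in every group. The whole list summed to 78132 FPKM at the high dose against 49852 in vehicle, so the readout of mtDNA genes is incomplete. Why those 5 stood at 0 was not tested. mt-Nd1, a membrane subunit of complex I, rose by 0.61 and 0.78, and mt-Co1, the catalytic subunit of complex IV, by 0.62 and 0.68 at the mid and high dose in the authors' deposited table. Of the 15 complex I assembly factors 1 rose at each upper dose, namely Ndufaf4, by 0.66 and 0.54 according to the authors' deposited table, and the medians were 0.20 and 0.08. Of 30 tested assembly factors of complexes II to V, 4 rose at the mid and 2 at the high dose, led by Sco2, a copper chaperone of complex IV, with 1.80 and 1.79 in the authors' deposited table. The counts of both assembly factor lists lie near or below the shares of all tested genes called higher. The assembly factor lists thus had smaller medians than the subunits; that difference was not tested.

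Among 15 regulators of mitochondrial biogenesis, Ppargc1b, a coactivator of respiratory genes, rose at all 3 tropifexor doses, by 1.84, 2.2 and 2.5 from the low to the high dose in the authors' deposited table. It fell by 0.72 in OCA vehicle and by 1.30 in tropifexor vehicle against lean control, and had -0.02 with OCA, in the authors' deposited table of each. Ppargc1a, the related coactivator, fell by 0.99 in OCA vehicle and by 1.39 in tropifexor vehicle against lean control, per the authors' deposited table of each. It had 0.47 (q = 0.177) with OCA and 0.47 (q = 0.284) at the low dose, rose by 0.72 at the mid dose and had 0.07 at the high dose in the authors' deposited table. Esrra, a nuclear receptor of respiratory genes, had 0.60 and 0.76 at the mid and high dose without a call, and Nrf1, Gabpa and Tfam were called in none of the 4 drug comparisons, by the authors' deposited table of each. Of the 16 citric acid cycle enzymes 6 rose at each upper dose with medians of 0.30 and 0.26, led by Idh3b, a subunit of isocitrate dehydrogenase, with 0.66 and 0.83 in the authors' deposited table. Of 21 electron carriers and related proteins 5 rose and 2 fell at the mid dose, and 5 rose and 3 fell at the high dose. Slc25a5, the ADP/ATP carrier that exchanges the product of complex V, rose by 0.83 and 0.79 and Ucp2, an uncoupling protein abundant in immune cells, fell by 1.23 and 1.02 according to the authors' deposited table.

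**Figure D5:**
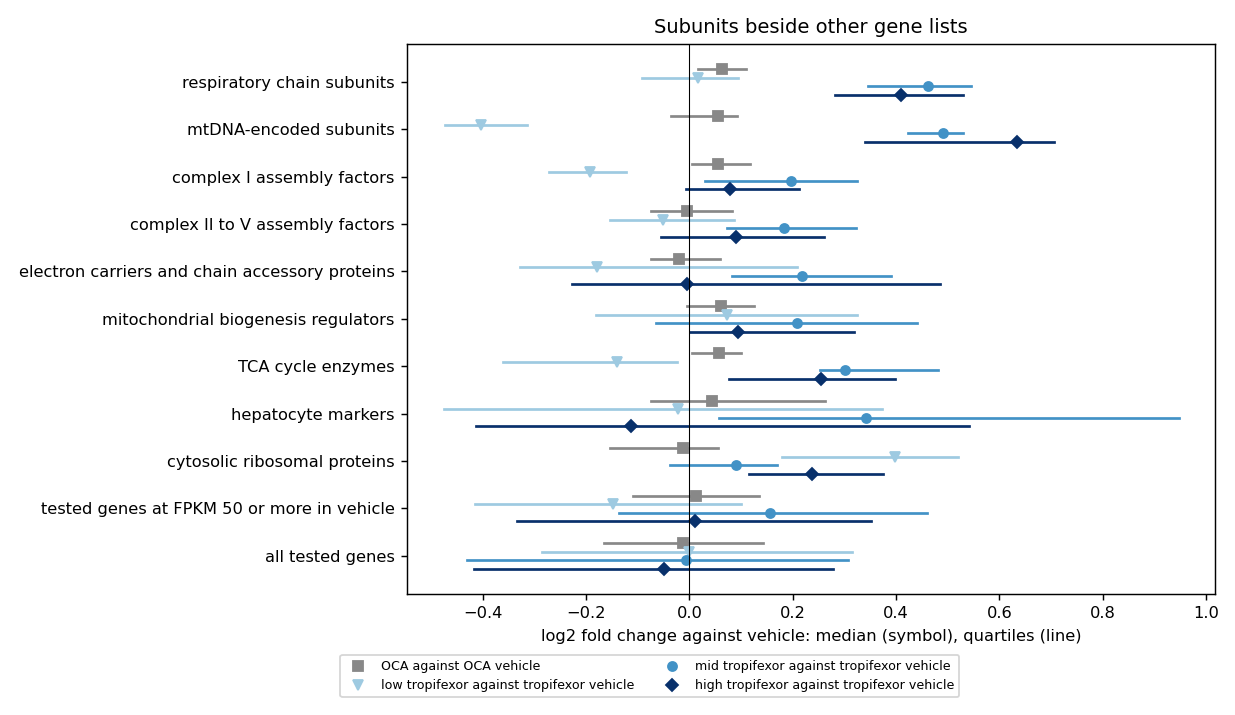
Median (symbol) and quartiles (line) of the deposited log2 fold change against vehicle (horizontal axis) for the subunits, 8 other gene lists, tested genes at 50 FPKM or more in vehicle and all tested genes, with OCA and low, mid and high tropifexor. The subunits have medians of 0.46 and 0.41 at the mid and high dose, beside medians of -0.01 and -0.05 for all tested genes.

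Some measures of the samples moved with the subunits at the upper doses. The FPKM of all genes summed to more in the mid and high tropifexor groups than in their vehicle, by 0.23 and 0.26 (log2), while it had -0.13 at the low dose and 0.03 with OCA. The subunits made up 1.85%, 2.00% and 1.92% of all FPKM at the low, mid and high dose against 1.72% in tropifexor vehicle, and 1.77% with OCA against 1.75% in its vehicle. Marker lists of other cell types moved as well, in part also with OCA and the low dose. Beside the counts below, 2.23% of all tested genes were called lower with OCA and 5.2%, 15.7% and 15.5% at the low, mid and high dose. Called higher were 1.81%, 6.03%, 11.8% and 9.93% in the same order. Of 10 macrophage markers 5 fell with OCA and 1, 8 and 5 at the low, mid and high dose, and the list summed to 216 FPKM with OCA against 332 in its vehicle. It summed to 256 FPKM at the low dose against 332 in vehicle. The list summed to 150 FPKM at the mid dose against 290 in vehicle and to 199 at the high dose against 302. Of 8 stellate cell and myofibroblast markers 0 fell with OCA and 4, 7 and 7 at the low, mid and high dose, and the list summed to 122 FPKM at the mid dose against 310 in vehicle and to 153 at the high dose against 322. Of 6 cholangiocyte markers 2 rose with OCA and 4 at the low dose, while 2 fell at the mid and 1 at the high dose, with sums of 70.3 FPKM at the mid dose against 172 in vehicle and of 115 at the high dose against 179. Of 7 lymphocyte markers 4 fell with OCA and 0, 4 and 5 at the low, mid and high dose, and of 6 endothelial markers 1 fell with OCA and 1, 3 and 4 at these doses. Most lymphocyte markers were under 1 FPKM, namely 5 with OCA, 4, 6 and 5 at the low, mid and high dose, and 5 in each vehicle group. Of the 10 hepatocyte markers 4 rose and 2 fell at the mid dose, and 3 rose and 3 fell at the high dose, with medians of 0.34 and -0.11. Their part in the result was not tested. Cytosolic ribosomal proteins had medians of 0.40, 0.09 and 0.24 at the low, mid and high dose, beside 0.02, 0.46 and 0.41 for the subunits. Whether transcript length or level had a part in the subunit values was not tested.

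Within the 71 subunits at 10 FPKM or more, the size of the change was little related to level or length. Spearman's rho across these genes, which share the same libraries, between the fold change and the vehicle FPKM was -0.00 at the mid and 0.10 at the high dose, and with the coding length it was 0.17 and 0.21. The 40 genes with under 500 coding bases had medians of 0.44 and 0.39 at the mid and high dose, and the 31 longer ones 0.50 and 0.48. For the 44 genes with no near-identical copy and no overlapping exon, 27 of 42 tested rose at the mid and 24 at the high dose, which is 64.3% and 57.1%, close to the shares of all subunits.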

How the data were processed

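Stranded mRNA libraries (TruSeq) were made from flash-frozen liver of 28 mice, per the labels' protocols. The submitters' processing notes name bcl2fastq, STAR 2.5.1b, Cufflinks 2.2.1, Cuffnorm, Cuffdiff and the build GRCm38, with no role or order. The deposited Cuffdiff tables hold 1 FPKM per group and gene, with the 4 animals pooled by the authors. They also hold the authors' log2 fold change, test statistic (a score), p-value and q-value. The smallest deposited p-value is 5e-05. Library depth is unknown, and a table of values per sample that the labels name was not analysed here.

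From these, genes with status OK and q under 0.05 were counted as called, which matched the authors' own flag in all 10 tables. The implied SE is the absolute fold change over the test statistic; the rescaled SE divides it by 2.03 to 2.05, the ratio of the normal z of the deposited p to the statistic over genes with p between 0.0002 and 0.9. Differences of effects were tested with the implied SE as a normal test, adjusted by Benjamini-Hochberg over all genes tested in both tables, and the script was tested on simulated data. Near-identical copies were found with blastn 2.17.0 at 95% identity or more over 80% or more of the sequence, and positions and overlaps are from GENCODE M21. Promoter windows are from RefSeq. Python 3.11.15, pandas 2.3.3, numpy 2.4.6, scipy 1.17.1 and matplotlib 3.10.9 were used.

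The subunits, the other gene lists and the tests were chosen with earlier results of these data known. Genes were named by rule: per complex the 3 most abundant in lean control, up to 10 called genes per direction and comparison by size, genes called in opposite directions by diet and drug, the isoform families, the complex I core and complex II. Others, such as Ndufb3, Uqcrq at its low fold change and the genes shown with promoters, were chosen after their values were seen. Alternatives tried were other filters on low values, a pseudocount of 1, centring and other choices of members. Values of 1 subunit are not reported here on its own; it is part of the counts and medians.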

Additional observations from a re-analysis of the deposited data

Results flagged for a closer look

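With the SE rescaled to the deposited p, the test of the difference between 2 effects called the following subunits, and with the implied SE it called 0 of them. In the order of the pairs below, 8 of 79, 2 of 80, 4 of 80 and 1 of 80 subunits were called. Beside them, 11.5%, 5.63%, 10.3% and 2.32% of all genes were called, counted in both directions, while every called subunit was higher in the first-named effect. Counted without direction, subunits were thus called no more often than all genes. By direction, 74 of 79, 75 of 80, 75 of 80 and 27 of 80 subunit differences were above 0, called or not. Values are differences of log2 fold changes, the first-named effect minus the second. The high tropifexor effect exceeded that of OCA by 2.11 for Cox7a1, 1.49 for Atp5g1, 0.808 for Cox5b, 0.731 for Ndufv1, 0.702 for Ndufs7, 0.701 for Atp5k, 0.679 for Atp5s and 0.521 for Sdhb. The high effect exceeded the low effect by 1.99 for Cox7a1 and 0.729 for Atp5k. The mid effect exceeded the low effect by 0.7 for Atp5k, 0.674 for Sdhb, 0.669 for Cox5a and 0.625 for Uqcrfs1. The high effect exceeded the mid effect by 1.42 for Cox7a1, with a 95% interval of 0.73 to 2.11 by the rescaled and 0.01 to 2.83 by the implied SE. Cox7a1 and Atp5k were each called in 3 of these pairs. The pairs share groups, and all 3 Cox7a1 calls use the same high-dose value, so the calls of 1 gene are not independent of each other. Cox5b, Atp5k and Atp5g1 each have 1 near-identical copy in the annotation, and Cox7a1, Sdhb and Ndufv1 have none.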

How the results depend on the processing

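No paired analysis was possible because the tables analysed here give 1 value per group. Leaving out single animals was not run for the same reason, and the table of values per sample that the labels name was not used. With the rescaled SE in place of the implied one, 8 subunits in place of 0 differed between the high tropifexor and OCA effects, 2 between high and low, 4 between mid and low and 1 between high and mid. With a mean FPKM of at least 1, the counts called higher were 0 in place of 1 in each vehicle group against lean control and 1 in place of 2 in OCA against lean control, and the count lower at the mid dose was 0 in place of 1; the genes left out were under that level. Adjusted over every gene listed, 38 subunits in place of 50 were higher at the mid dose and 35 in place of 44 at the high dose, and 17 in place of 22 in mid tropifexor against lean control; tropifexor vehicle against lean control had 3 lower in place of 4, Ndufb9 being lost. Under the same adjustment high tropifexor against lean control had 14 higher in place of 27, OCA against lean control 1 in place of 2 and the mid dose 0 lower in place of 1, since more genes enter the adjustment. Of the 156 single calls with a finite fold change, 114 held under that adjustment and 42 did not. Calls of a gene listed at 0 FPKM in either group, such as Cox8b against lean control, are not among them. Without genes that have copies or overlaps, a choice made after seeing the data, 27 in place of 50 were higher at the mid dose, 24 in place of 44 at the high dose and 16 in place of 27 in high tropifexor against lean control, with fewer genes tested. The low-dose median of the log2 fold change was -0.0128 in place of 0.02 among subunits with a mean FPKM of at least 10. The 10 medians kept their direction with a pseudocount of 1, with centring and without restricted isoforms. Depth is unknown, so what low-level genes could show is limited by the authors' test alone.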
